A study of Mus musculus with 36 samples.

Results

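The genes described here encode the nuclear-encoded subunits of the mitochondrial respiratory chain and of ATP synthase. They were chosen by symbol alone: protein-coding mouse genes named Ndufa, Ndufb, Ndufc, Ndufs or Ndufv with a number, Sdha to Sdhd, and genes whose symbols begin with Uqcr, Cox4 to Cox8 with a letter, or Atp5. The rule found 83 of the 45232 genes in the count tables, of which 36 belong by name to complex I, 4 to complex II, 8 to complex III, 18 to complex IV and 17 to complex V. The rule itself uses no measured value. A filter on low counts left 77 for testing; the 6 that it left out were all complex IV paralogs.

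RNA sequencing of poly(A) RNA was made from primary mouse prostate organoids in which a doxycycline-inducible pCW construct could drive a FOXA1-2A-DsRED fusion. Foxa1 is a forkhead pioneer transcription factor of the luminal prostate. Each of 4 constructs was sampled at day 0, day 1 and day 11 in 3 replicates, giving 12 groups and 36 libraries. The constructs were the empty vehicle (EV), wild-type FOXA1 (WT), and the FE255del and R219S forms of FOXA1. All groups shared the same culture, the sorting for dsRED and the pCW backbone, and the treatment named for the organoids was doxycycline at 500 ng/mL; the deposited tables of the day 0 libraries are named as without doxycycline. DsRED-positive cells of each construct were plated 3 times and the replicates were handled separately from then on, so the p-values measure the spread between cultures of 1 infected population per construct, not between mice. Age and sex of the mice are not given in the sources used here.

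The respiratory chain passes electrons from NADH through complex I, or from succinate through complex II, to ubiquinone, then through complex III and cytochrome c to complex IV, where oxygen is reduced. Complexes I, III and IV pump protons across the inner mitochondrial membrane, and complex V uses the resulting gradient to make ATP. Most subunits come from nuclear genes, a smaller set comes from mitochondrial DNA, and the nuclear genes are known to share promoter elements for NRF1, ETS-family factors such as GABP, YY1 and the estrogen-related receptors. The prostate epithelium is known for an unusual citrate metabolism, in which luminal cells secrete citrate that other tissues would oxidise.

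Totals ranged from 61476938 to 102385337 counts per library, and 20064 to 21413 genes had at least 1 count. The transcripts of the construct and of the mouse's own Foxa1 are counted together as far as they align. At day 1 Foxa1 lay between 222 and 232 CPM (counts scaled to library size and composition) with EV, between 410 and 419 with WT, between 291 and 344 with FE255del, and between 303 and 312 with R219S. At day 11 the ranges were 217 to 241 with EV, 253 to 280 with WT, 266 to 316 with FE255del and 242 to 301 with R219S, so the separation from EV was smaller than at day 1. Day 0 libraries with WT, at 253 to 259 CPM, already lay above EV, at 227 to 237. FE255del at 230 to 237 and R219S at 222 to 235 overlapped EV at day 0. Unless stated otherwise, values for a gene are CPM in replicates 1, 2 and 3 in that order, differences are log2 fold changes with their standard error, and a gene is said to rise or fall where edgeR's quasi-likelihood test gave an adjusted p under 0.05 over the 18176 genes tested.

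Per kilobase of annotated exon, the members spanned a wide range of abundance. Averaged over the 36 libraries, Atp5a1, the alpha subunit of the catalytic head of ATP synthase, stood highest at 434 CPM per kilobase and ranged from 314 to 563 over the libraries. Next was Atp5b, the catalytic beta subunit, at 400, with a range of 272 to 518. These ranges pool the libraries of all groups and overlap, and they do not compare the 2 genes within a library. Cox8a followed at 318, Cox6b1 at 281 and Cox4i1 at 232, all complex IV subunits with overlapping ranges over the libraries. The median level per kilobase of the tested members was 117 in complex III, 102 in complex IV, 83.1 in complex V, 58.1 in complex II and 46.1 in complex I. The lowest tested member was Cox7a1, the paralog of subunit 7a that prevails in striated muscle, at 1.53 CPM per kilobase. The other tissue-restricted complex IV paralogs Cox4i2, Cox6a2, Cox6b2, Cox7b2, Cox8b and Cox8c were at or near 0: none exceeded 10 counts in any library, and Cox7b2 and Cox8c had 0 counts in all 36. In these organoids the complex IV message was thus carried by the ubiquitous forms, Cox4i1, Cox6a1, Cox6b1, Cox7b and Cox8a.

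For WT and FE255del, day 1 held the largest count of members that differed from EV among the 3 days. With WT FOXA1, 61 of the 77 tested members were higher and 2 lower than EV, against 29.6% of all tested genes higher and 30.9% lower. With FE255del, 73 were higher and 0 lower, against 25.5% and 27.7% of all genes, or 53.2% in either direction. With R219S, 11 were higher and 15 lower, that is 26 of 77, against 23.2% and 25.3% of all genes. The median log2 difference from EV over the 77 members was 0.24 in WT, a 1.18-fold level, 0.34 in FE255del, a 1.27-fold level, and -0.05 in R219S, beside medians over all genes of -0.01, -0.03 and -0.04. The sign was positive for 72 members in WT, 76 in FE255del and 28 in R219S. These 3 comparisons share the same 3 EV libraries.

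The members together took 1.15% ± 0.0404 (SD, n = 3) of all counts in EV at day 1, 1.49% ± 0.0695 in WT, 1.55% ± 0.0404 in FE255del and 1.16% ± 0.00775 in R219S. The EV libraries ran from 1.1% to 1.18%, the R219S libraries from 1.15% to 1.16% inside that range, the WT libraries from 1.43% to 1.57% and the FE255del libraries from 1.5% to 1.58%. WT and FE255del therefore overlapped each other and neither overlapped EV. Averaging log2 values over the 77 tested members, each set against its mean over all libraries, gave -0.0697, 0.0316 and 0.0857 in the EV libraries from lowest to highest and 0.226, 0.277 and 0.41 in WT. In FE255del it gave 0.328, 0.376 and 0.391, and in R219S -0.0184, -0.0178 and 0.015. In bulk organoids a change in the share of a cell type and a change in RNA per cell cannot be told apart in these values.

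**Figure D1:**
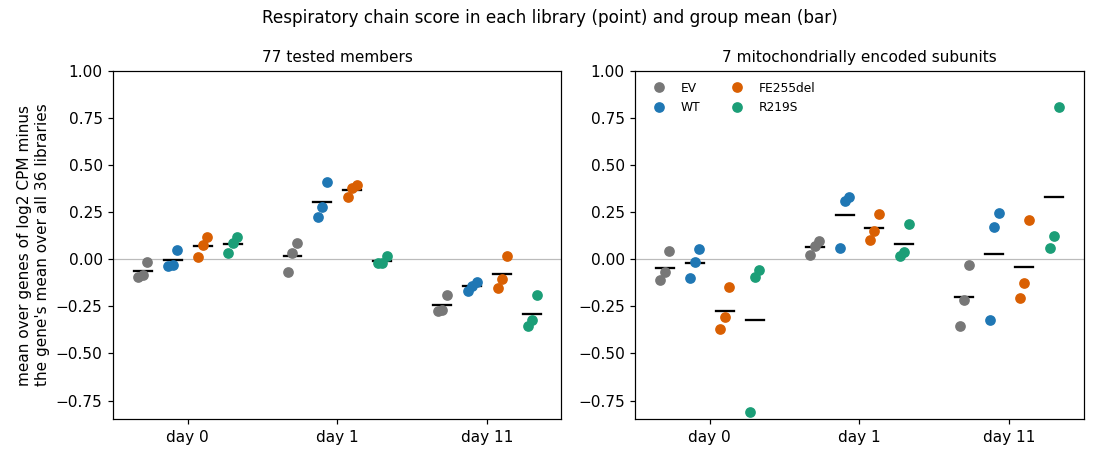
Mean log2 level of the 77 tested members (left) and of 7 subunits encoded by mitochondrial DNA (right) in each of the 36 libraries, relative to the mean over all libraries, by construct and day. Points are libraries and bars are group means; at day 1 the WT libraries (0.226 to 0.41) and FE255del libraries (0.328 to 0.391) lie above the EV libraries (-0.0697 to 0.0857) on the left, while R219S libraries lie within the EV range.

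Scaling of the libraries matters for the size of these differences. When libraries were scaled by their total counts alone, the median of all genes moved by 0.12 in the WT comparison at day 1 and by 0.10 in the FE255del comparison. The share of higher calls among all called genes moved from 49% to 60.8% in WT and from 48% to 61% in FE255del, and the members stood at 73 higher and 1 lower in WT and at 75 higher and 0 lower in FE255del. The member median under that scaling was 0.36 in WT, 0.45 in FE255del and 0.00 in R219S, where the small negative median was therefore lost. Without replicate 3 of EV, the count in R219S at day 1 was 16 in place of 26, and the share over all genes in that fit is not given here.

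**Figure D2:**
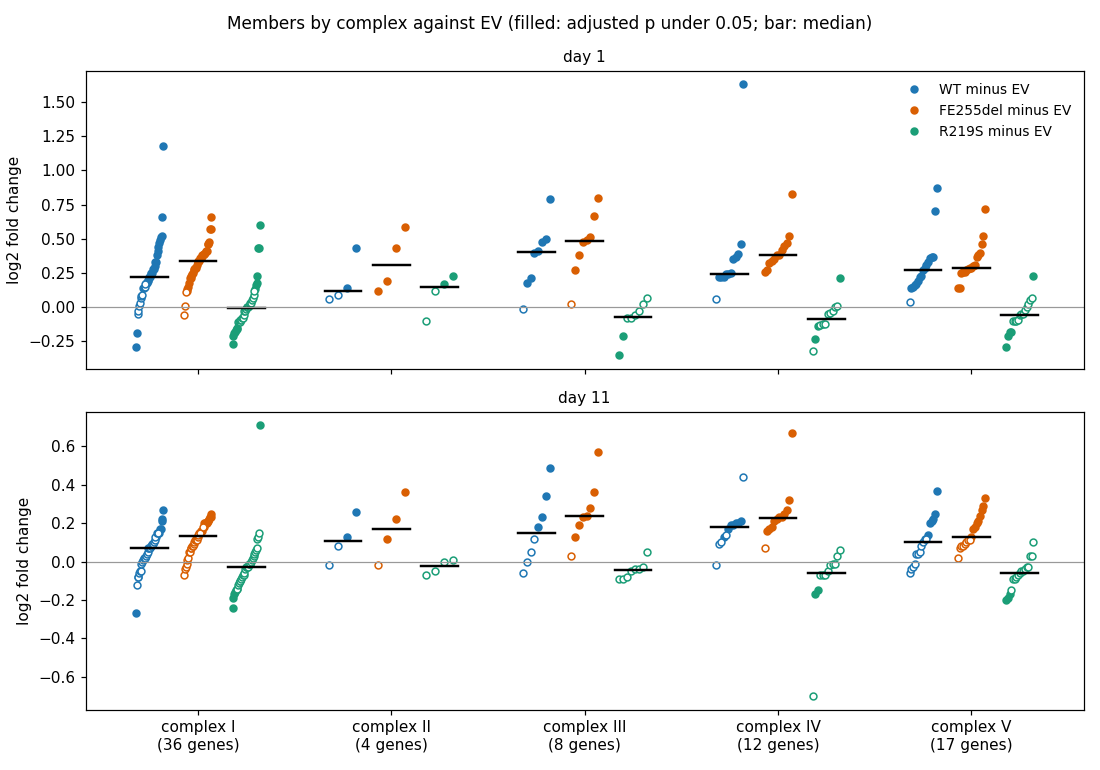
Log2 difference from EV for each tested member at day 1 (top) and day 11 (bottom), grouped by complex, with 1 point per gene, filled where the adjusted p was under 0.05, and a bar at the median of the complex. At day 1 the complex III medians are 0.41 in WT and 0.48 in FE255del, and the R219S points lie around 0.

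Complex I, the NADH dehydrogenase, had 25 of 36 members higher and 2 lower in WT at day 1, 33 higher and 0 lower in FE255del, and 7 higher and 7 lower in R219S. The medians were 0.22, 0.33 and -0.01. Ndufa8, an accessory subunit on the intermembrane-space side that is needed for assembly, had the largest rise of the complex in WT. It stood at 73.6, 82.3 and 81.8 CPM with EV, 172, 189 and 179 with WT, 120, 119 and 114 with FE255del, and 108, 106 and 107 with R219S. All 9 libraries with a FOXA1 construct lay above the 3 EV libraries, and WT lay above both mutant forms without overlap. The difference from EV was 1.18 ± 0.06 with WT (adjusted p = 2.1e-19), 0.57 ± 0.05 with FE255del (adjusted p = 6.1e-11) and 0.43 ± 0.05 with R219S (adjusted p = 2.9e-08).

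Ndufa1, a small membrane subunit of complex I encoded on the X chromosome, behaved differently from most members, since it rose to a similar level with all 3 forms. Its values at day 1 were 35.2, 36.7 and 35.2 CPM with EV, 51.6, 61.7 and 56 with WT, 58.4, 55.9 and 54.7 with FE255del, and 51.7, 57.1 and 53.4 with R219S. No library of the 3 forms overlapped EV, and the 3 forms overlapped each other. The rise was 0.66 ± 0.06 with WT (adjusted p = 4.4e-11), 0.66 ± 0.06 with FE255del (adjusted p = 6.9e-11) and 0.60 ± 0.06 with R219S (adjusted p = 7.5e-10). R219S and WT differed by -0.06 ± 0.06 for Ndufa1 (adjusted p = 0.423). Ndufa1 was already above EV at day 0 with WT and FE255del, by 0.19 ± 0.06 in each (adjusted p = 0.027 and 0.038). With R219S the day 0 difference was 0.15 ± 0.06 (adjusted p = 0.096). Ndufs5, an accessory subunit of the proton-pumping arm, was at 12.2, 15.1 and 15.3 CPM with EV and 19.2, 18.7 and 19.4 with R219S. All 3 R219S libraries were above EV, with a difference of 0.43 ± 0.08 (adjusted p = 1.8e-05), and it was 0.46 ± 0.08 with FE255del (adjusted p = 4.0e-06).

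The 2 members lower in WT at day 1 were both filed under complex I. Ndufs1, the largest core subunit and the carrier of several iron-sulfur clusters, was at 140, 148 and 143 CPM with EV, 125, 129 and 125 with WT, 181, 179 and 168 with FE255del, and 159, 158 and 157 with R219S. The 4 groups did not overlap at all, with WT lowest and FE255del highest. Relative to EV, Ndufs1 differed by -0.19 ± 0.04 with WT (adjusted p = 8.0e-05), 0.29 ± 0.04 with FE255del (adjusted p = 8.7e-08) and 0.13 ± 0.04 with R219S (adjusted p = 0.005). Under total-count scaling the WT difference was -0.06 with an adjusted p of 0.153. Ndufs1 overlaps Eef1b2 on the opposite strand, which averaged 877 CPM against 142 for Ndufs1, and the strand setting of the counting is not given in the sources used here, so reads of the pair cannot be told apart. Ndufa4, named for complex I but found in complex IV, was at 231, 257 and 264 CPM with EV and 190, 224 and 201 with WT, below EV in all 3 libraries (-0.29 ± 0.07, adjusted p = 4.0e-04). In FE255del it was at 263, 247 and 245 CPM, inside the EV range.

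Complex II oxidises succinate and is the only complex with all its subunits encoded in the nucleus. In WT at day 1, 2 of its 4 genes were higher (Sdhb and Sdhd), in FE255del 4, and in R219S 2 (Sdha and Sdhd), with none lower. The Sdhb call with WT did not hold without EV replicate 1 (adjusted p = 0.142) or WT replicate 2 (adjusted p = 0.290). Sdhd, a membrane anchor subunit, was at 158, 170 and 166 CPM with EV, 213, 234 and 218 with WT, 260, 250 and 238 with FE255del, and 188, 188 and 179 with R219S. The 4 groups did not overlap and ran in the order EV, R219S, WT, FE255del. The rise was 0.43 ± 0.05 with WT (adjusted p = 2.9e-09), 0.59 ± 0.05 with FE255del (adjusted p = 1.7e-12) and 0.17 ± 0.05 with R219S (adjusted p = 0.005). Sdha, the flavoprotein that binds succinate, differed in its pattern: 280, 298 and 299 CPM with EV, 290, 318 and 304 with WT, 341, 340 and 321 with FE255del, and 344, 339 and 341 with R219S. WT overlapped EV (0.06 ± 0.04, adjusted p = 0.197), whereas both mutant forms lay above EV, by 0.19 ± 0.04 with FE255del (adjusted p = 5.0e-05) and 0.23 ± 0.04 with R219S (adjusted p = 5.7e-06). Sdhb, the iron-sulfur subunit, was at 84.4, 90.3 and 91.8 CPM with EV and 125, 120 and 114 with FE255del, a rise of 0.43 ± 0.06 without overlap (adjusted p = 5.5e-08).

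Complex III had the largest median rise of the 5 complexes, 0.41 in WT and 0.48 in FE255del, with 7 of 8 members higher in each and 0 lower. R219S had 0 higher and 2 lower, Uqcrc1 and Uqcrh, and Uqcrh was not called without EV replicate 3 (adjusted p = 0.054). Uqcrb, a small subunit near the ubiquinone-binding site, was at 89.7, 93.1 and 94.4 CPM with EV, 152, 169 and 158 with WT, 166, 163 and 154 with FE255del, and 93.4, 94.3 and 92.9 with R219S. WT and FE255del overlapped each other well above EV, and the R219S values fell within the EV range. Uqcrb rose by 0.79 ± 0.06 with WT (adjusted p = 2.5e-14) and 0.80 ± 0.06 with FE255del (adjusted p = 2.5e-14), and differed by 0.02 ± 0.06 with R219S (adjusted p = 0.839). Uqcrfs1, the Rieske iron-sulfur protein, was at 160, 167 and 172 CPM with EV, 210, 234 and 217 with WT, and 242, 228 and 225 with FE255del. It rose by 0.40 ± 0.04 (adjusted p = 1.3e-10) and 0.48 ± 0.04 (adjusted p = 3.6e-12), again with no overlap with EV. Uqcrc1, a core protein of the matrix side, was the exception in this complex: EV was at 284, 302 and 314 CPM, WT at 283, 315 and 299, FE255del at 311, 306 and 293, and R219S at 247, 229 and 232. The R219S libraries all lay below every EV library, while the WT and FE255del values spread about the EV range, and R219S fell by 0.35 ± 0.04 on the log2 scale (adjusted p = 3.9e-08). The WT difference for Uqcrc1 was -0.01, and under total-count scaling 0.12 (adjusted p = 0.006), so its sign depends on the scaling.

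Complex IV had 11 of 12 tested members higher in WT, 12 in FE255del and 1 in R219S at day 1, with 0, 0 and 2 lower. Cox4i1, a regulatory subunit present in most tissues, was at 342, 344 and 374 CPM with EV, 401, 449 and 411 with WT, and 459, 464 and 452 with FE255del. Neither group overlapped EV, and the rise was 0.25 ± 0.06 with WT (adjusted p = 2.1e-04) and 0.38 ± 0.06 with FE255del (adjusted p = 5.5e-07). Cox5a, a matrix-side subunit, was at 131, 144 and 141 CPM with EV, 151, 175 and 159 with WT, 197, 193 and 188 with FE255del, and 140, 135 and 131 with R219S. FE255del lay above WT here as well, and R219S lay within the EV range. Cox8a, the smallest subunit, was at 182, 197 and 203 CPM with EV, 243, 295 and 259 with WT, 267, 266 and 247 with FE255del, and 164, 165 and 165 with R219S. WT and FE255del rose by 0.46 ± 0.07 (adjusted p = 2.8e-06) and 0.42 ± 0.07 (adjusted p = 1.1e-05), while R219S fell by 0.23 ± 0.07 (adjusted p = 0.009), each without overlap with EV. Cox7a2l, known as a supercomplex assembly factor that joins complexes III and IV, rose by 0.39 ± 0.06 with WT (adjusted p = 1.0e-06) and by 0.32 ± 0.06 with FE255del (adjusted p = 3.1e-05).

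Cox7a1 had the largest fold change of all members at day 1, from a very low level. It was at 0.581, 0.772 and 0.817 CPM with EV, 2.23, 2.32 and 2.16 with WT, 1.31, 1.21 and 1.33 with FE255del, and 0.579, 0.451 and 0.707 with R219S. WT lay above FE255del and FE255del above EV without overlap, and R219S overlapped EV. The rise was 1.63 ± 0.22 with WT (adjusted p = 9.8e-08) and 0.83 ± 0.23 with FE255del (adjusted p = 0.002), and the R219S difference was -0.32 ± 0.24 (adjusted p = 0.291). Its mean lies below the 2 CPM set for ranking members by size, and it is described because it is the striated-muscle paralog. Of 12 striated-muscle markers 8 were tested, and their summed level at day 1 ranged from 20.2 to 22.9 CPM with EV, from 61 to 70.8 with WT, from 77.7 to 90.9 with FE255del and from 19.9 to 23 with R219S. Of the 8, 5 were higher and 3 lower than EV in WT, 4 and 2 in FE255del, and 1 and 2 in R219S, so the markers did not move one way. Myh7 averaged 45.2 CPM with WT and Mb 69 with FE255del, while Tnni2 went from 15.5 with EV to 1.61 with WT. Actc1 had no count in any of the 12 libraries, Tnnt3 none in WT and FE255del, Myh6 none in EV and Ckm none in R219S. The part of these genes in the Cox7a1 values was not tested. Of 6 brown-fat markers Ucp1 had no count at day 1 and the summed level did not exceed 0.792 CPM. The 3 tested were called higher than EV with WT, and 1 each with FE255del and R219S. Their means with WT were 0.373 CPM for Cidea, 0.327 for Elovl3 and 0.0463 for Fabp4. These calls rest on very few counts and are not read as a rise of the markers.

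Complex V had 16 of 17 members higher in WT and 17 in FE255del at day 1, and 1 higher and 4 lower in R219S. Atp5o, which joins the catalytic head to the peripheral stalk, was at 164, 179 and 190 CPM with EV, 306, 345 and 326 with WT, 257, 263 and 247 with FE255del, and 160, 154 and 148 with R219S. The 4 groups did not overlap, with R219S lowest and WT highest. Atp5o rose by 0.87 ± 0.07 with WT (adjusted p = 1.8e-13) and 0.52 ± 0.07 with FE255del (adjusted p = 2.7e-08), and fell by 0.21 ± 0.07 with R219S (adjusted p = 0.009), a call lost without EV replicate 3 (adjusted p = 0.074). Atp5k, subunit e of the membrane sector, was at 62.5, 63.9 and 66.2 CPM with EV, 80.2, 88.9 and 78.1 with WT, and 107, 107 and 103 with FE255del. Here FE255del lay above WT, with rises of 0.36 ± 0.06 with WT (adjusted p = 8.5e-06) and 0.72 ± 0.06 with FE255del (adjusted p = 9.7e-12). Atp5a1 was at 1267, 1364 and 1383 CPM with EV, 1552, 1698 and 1606 with WT, 1762, 1764 and 1677 with FE255del, and 1304, 1301 and 1259 with R219S. WT and FE255del lay above EV by 0.27 ± 0.05 (adjusted p = 7.6e-06) and 0.37 ± 0.05 (adjusted p = 3.8e-08), and R219S overlapped EV. Atp5g1, Atp5g2 and Atp5g3 encode the same mature c-ring protein from separate genes. Atp5g2 was at 38.9, 41.2 and 41.5 CPM with EV and 31.9, 33.8 and 33.7 with R219S, a fall of 0.29 ± 0.06 on the log2 scale without overlap (adjusted p = 1.2e-04), while Atp5g3 rose by 0.29 ± 0.05 with FE255del (adjusted p = 1.5e-05).

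**Figure D3:**
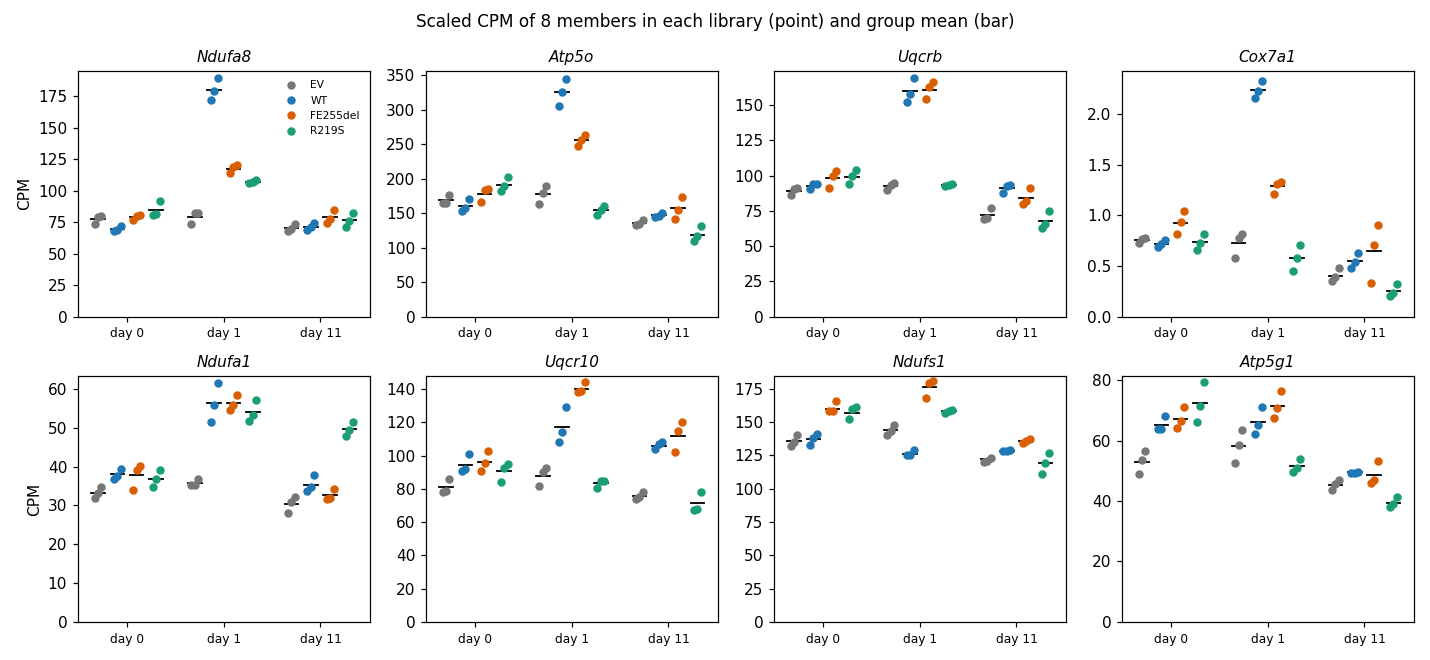
Level in each library, in CPM on a linear axis from 0, of 8 members at the 3 days, by construct, with points ordered by value within a group and bars at group means. Ndufa8 and Atp5o are highest in WT at day 1, Uqcrb overlaps between WT and FE255del, and Ndufa1 is raised in the 9 FOXA1 libraries at day 1 and stays raised in R219S at day 11.

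Promoters of members that moved together, and of members that did not move alike, are shown for 4 genes: Ndufa8 and Atp5o rose further with WT than with FE255del, Atp5k rose further with FE255del, and Cox7a1 is the tissue-restricted paralog. The sequences are the 250 bases before the RefSeq start on build GRCm38.p6, in the direction of transcription, with matches to the searched motifs in capitals. Ndufa8 lies at chr2:36049339-36049588 on the minus strand and holds an NRF1 match and 2 GC boxes. Atp5k lies at chr5:108434400-108434649 on the minus strand with 1 NRF1 match. Atp5o lies at chr16:91931631-91931880 on the minus strand, and Cox7a1 at chr7:30183921-30184170 on the plus strand. Cox7a1 holds 2 CCAAT boxes in reverse, and Atp5o holds no match in the bases printed. The 50 bases after the start, which are not printed, hold an NRF1 match in Atp5o and matches to the ETS and estrogen-related receptor motifs in Atp5k, and these enter the counts of the 300-base windows.
Ndufa8: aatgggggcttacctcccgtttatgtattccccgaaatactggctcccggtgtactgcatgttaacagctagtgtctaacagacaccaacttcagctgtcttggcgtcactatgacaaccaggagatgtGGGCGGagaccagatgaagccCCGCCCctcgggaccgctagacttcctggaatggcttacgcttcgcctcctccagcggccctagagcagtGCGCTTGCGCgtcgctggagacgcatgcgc
Atp5k: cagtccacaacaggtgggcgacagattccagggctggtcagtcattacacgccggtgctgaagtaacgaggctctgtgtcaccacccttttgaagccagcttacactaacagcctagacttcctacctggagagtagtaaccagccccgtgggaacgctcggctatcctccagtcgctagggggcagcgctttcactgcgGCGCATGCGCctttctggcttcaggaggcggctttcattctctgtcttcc
Atp5o: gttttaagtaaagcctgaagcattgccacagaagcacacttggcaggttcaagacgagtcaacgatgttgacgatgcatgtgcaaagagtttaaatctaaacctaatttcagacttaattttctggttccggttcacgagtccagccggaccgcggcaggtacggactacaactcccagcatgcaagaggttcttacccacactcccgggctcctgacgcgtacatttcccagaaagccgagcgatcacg
Cox7a1: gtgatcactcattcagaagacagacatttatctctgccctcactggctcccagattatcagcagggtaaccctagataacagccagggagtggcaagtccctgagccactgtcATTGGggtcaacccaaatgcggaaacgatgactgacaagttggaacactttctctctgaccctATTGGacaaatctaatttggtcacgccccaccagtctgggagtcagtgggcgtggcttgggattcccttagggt

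RefSeq windows of 300 bases, 250 before and 50 after the start, were found for 66 of the 83 members, with 71 windows because some genes have several starts, and for 32851 windows of all genes. On either strand, the NRF1 motif, shown in capitals in the Ndufa8 and Atp5k sequences, was in 25.4% of member windows and 4.6% of all windows. The ETS motif CCGGAAG was in 22.5% against 8.86%, the YY1 motif GCCATNTT in 22.5% against 6.05%, and the estrogen-related receptor element AAGGTCA in 11.3% against 4.72%. Motifs of general promoters differed less: the GC box GGGCGG was in 38% against 35.7%, CCAAT in 42.3% against 37.4%, and TATAAA in 11.3% against 13.6%. A forkhead motif, TGTTTAC, was in the window of 1 member, 1.41% of member windows against 3.65% of all windows. These are matches of letters in a short window, and no binding was measured here.

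FE255del and WT were the 2 forms with most members above EV at day 1. Between them, 20 members were higher and 7 lower in FE255del, against 21.8% and 19.9% of all genes, with a median of 0.09. The 7 lower included the members furthest above EV with WT: Ndufa8 (-0.62 ± 0.05, adjusted p = 2.2e-11), Atp5o (-0.35 ± 0.07, adjusted p = 4.8e-05) and Cox7a1 (-0.80 ± 0.21, adjusted p = 0.003). The higher ones included Ndufs1 (0.48 ± 0.04, adjusted p = 3.7e-12), Atp5k (0.36 ± 0.06, adjusted p = 2.0e-05), Uqcr10 (0.26 ± 0.07, adjusted p = 0.001) and Cox5a (0.25 ± 0.05, adjusted p = 1.0e-04). Uqcr10, a small subunit of complex III, was at 108, 129 and 114 CPM with WT and 139, 144 and 138 with FE255del, with no overlap. As shares of the 77 members, 26% were higher and 9.09% lower in FE255del.

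R219S was compared with WT but not directly with FE255del. At day 1, 3 members were higher and 57 lower in R219S, against 30.5% and 29.1% of all genes, or 59.6% in either direction, with a median of -0.28. By complex, 22 of 36 members were lower in complex I, 2 of 4 in complex II, 8 of 8 in complex III, 10 of 12 in complex IV and 15 of 17 in complex V. The medians were -0.24, -0.10, -0.42, -0.37 and -0.33. Atp5o differed by -1.08 ± 0.07 (adjusted p = 1.0e-15), Uqcrb by -0.77 ± 0.06 (adjusted p = 5.1e-14), Ndufa8 by -0.75 ± 0.05 (adjusted p = 4.1e-14), Uqcrh, the hinge protein of complex III, by -0.71 ± 0.06 (adjusted p = 6.4e-12) and Cox8a by -0.69 ± 0.07 (adjusted p = 1.4e-09). In each of these 5 genes every R219S library lay below every WT library. The 3 that were higher in R219S were Ndufs1 (0.32 ± 0.04, adjusted p = 8.6e-09), Ndufs5 (0.24 ± 0.08, adjusted p = 0.008) and Sdha (0.17 ± 0.04, adjusted p = 2.6e-04).

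**Figure D4:**
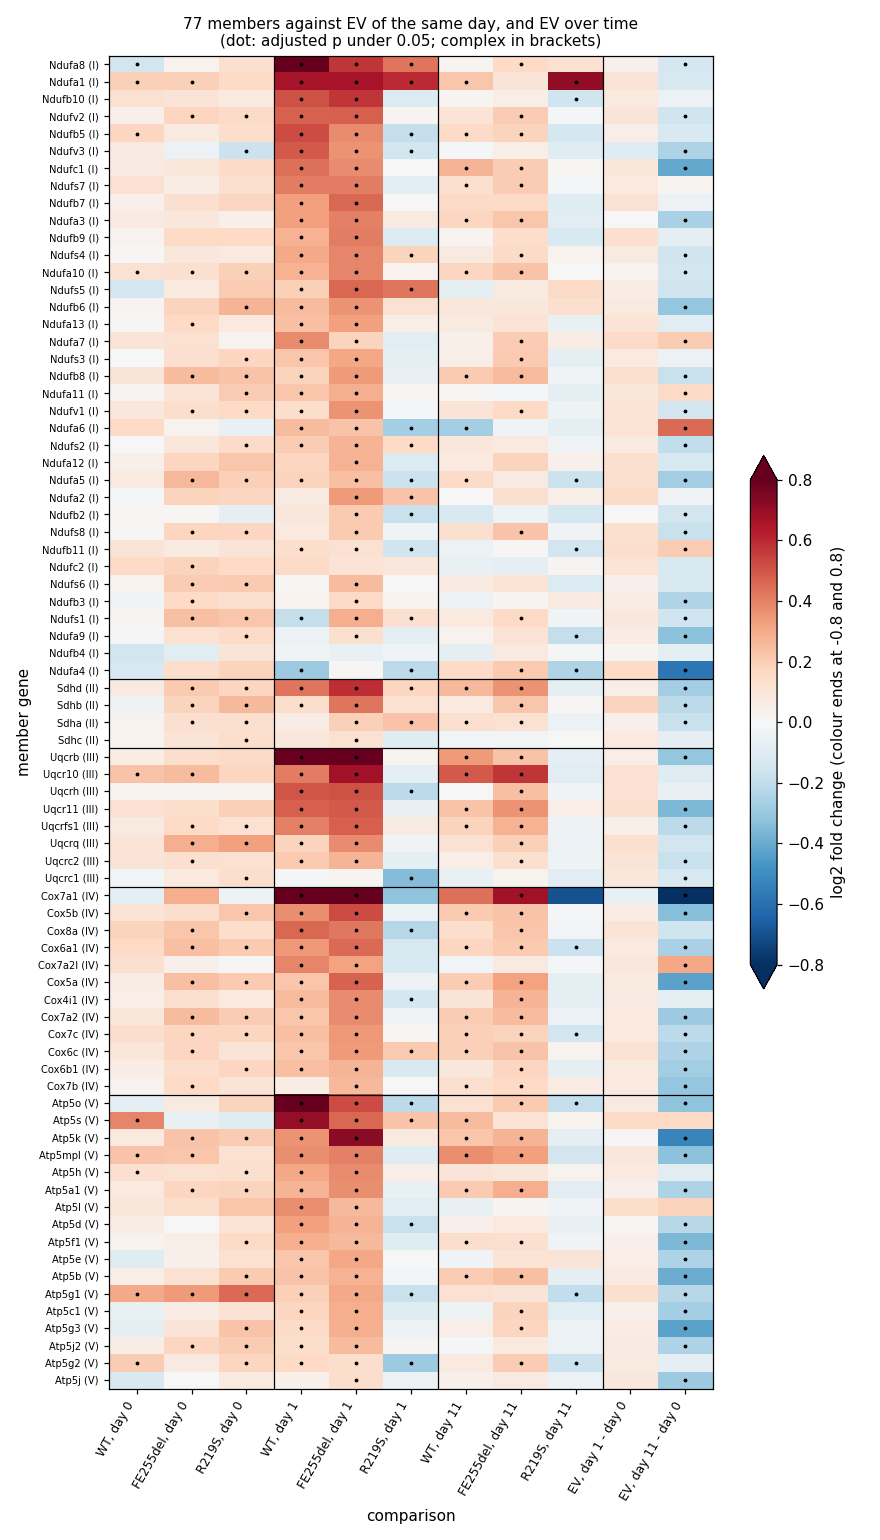
Log2 difference from EV of the 77 tested members, grouped by complex, in columns for WT, FE255del and R219S at day 0, day 1 and day 11, followed by 2 columns for EV at day 1 and day 11 against EV at day 0; dots mark an adjusted p under 0.05, and colours end at 0.8 in either direction. WT and FE255del at day 1 are positive for 72 and 76 members, R219S at day 1 for 28, and the columns for day 0 and day 11 are mostly paler.

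At day 0, in the libraries named as without doxycycline, FE255del and R219S already had a larger share of members higher than EV than over all genes. WT had 9 higher and 1 lower against EV (9.9% and 12.8% of all genes), FE255del 31 higher and 0 lower (11.1% and 9.72%), and R219S 35 higher and 1 lower (13.2% and 6.92%, together 20.1%). The WT counts were 11.7% and 1.3% of the members, near the share of all genes for higher and below it for lower. The medians were 0.06, 0.14 and 0.15, smaller than the day 1 medians of WT and FE255del. Atp5g1 was at 49, 53.7 and 56.7 CPM with EV, 63.8, 63.8 and 68.1 with WT, 64.2, 71.2 and 66.5 with FE255del, and 71.4, 66.3 and 79.4 with R219S. All 9 libraries lay above EV, with differences of 0.30 ± 0.07 with WT (adjusted p = 1.0e-03), 0.34 ± 0.07 with FE255del (adjusted p = 3.5e-04) and 0.45 ± 0.07 with R219S (adjusted p = 2.1e-05). Atp5s, coupling factor B, was at 7.66, 7.89 and 7.51 CPM with EV and 9.8, 10.1 and 10.3 with WT, a rise of 0.39 ± 0.09 (adjusted p = 8.7e-04) in that form, and both mutant forms overlapped EV. Uqcrq, a small subunit of complex III, was at 67.5, 68.4 and 73.4 CPM with EV, 80.2, 92.4 and 83.8 with FE255del and 85.1, 86 and 92.4 with R219S, above EV by 0.29 ± 0.07 (adjusted p = 0.004) and 0.33 ± 0.07 (adjusted p = 0.001). FE255del against WT at day 0 gave 16 higher and 1 lower (15.7% and 11.2% of all genes), and R219S against WT 25 higher and 3 lower (23.8% and 16%, together 39.8%).

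The day 0 counts moved when single libraries were left out and with scaling. A fit with 1 library fewer has less power for every gene, and shares over all genes in those fits are not given here. The counts therefore do not show whether the members depend on single libraries more than other genes do. The WT count of 10 was 4 without EV replicate 1, EV replicate 2 or WT replicate 3. The FE255del count of 31 was 16 without EV replicate 1, 13 without EV replicate 2, 14 without FE255del replicate 2 and 16 without FE255del replicate 3. The R219S count of 36 was 18, 9, 19 and 15 without EV replicate 1, EV replicate 2, R219S replicate 2 and R219S replicate 3. FE255del against WT fell from 17 to 5, 8, 7 and 8 without WT replicate 1, WT replicate 2, FE255del replicate 2 and FE255del replicate 3, and R219S against WT from 28 to 16, 18 and 18 without WT replicate 1, WT replicate 2 and R219S replicate 3. Under total-count scaling R219S against EV gave 22 higher and 1 lower, FE255del against WT 8 higher and 5 lower, and R219S against WT 10 higher and 7 lower, as the share of higher calls over all genes moved from 65.6% to 47.2%, from 58.3% to 44.9% and from 59.7% to 43.4%.

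Subtracting the day 0 difference of each construct asks how far the members changed since day 0 beyond EV. By day 1, WT had changed upward in 41 members and downward in 1 (20.2% and 23.8% of all genes), FE255del upward in 39 and downward in 0 (17.4% and 22.9%), and R219S upward in 3 and downward in 38 (16.1% and 23.3%). The medians were 0.19, 0.20 and -0.20. Ndufa8 changed by 1.34 ± 0.08 with WT (adjusted p = 3.9e-16), 0.53 ± 0.08 with FE255del (adjusted p = 6.7e-07) and 0.31 ± 0.08 with R219S (adjusted p = 0.002). Uqcrb changed by 0.73 ± 0.08 with WT (adjusted p = 1.9e-09) and 0.66 ± 0.08 with FE255del (adjusted p = 1.9e-08). In R219S the largest changes downward were in Atp5g1 (-0.62 ± 0.10, adjusted p = 2.3e-06), Uqcrc1 (-0.49 ± 0.06, adjusted p = 7.3e-08) and Atp5g2 (-0.45 ± 0.08, adjusted p = 4.2e-05). Atp5g1 with R219S moved from 71.4, 66.3 and 79.4 CPM at day 0 to 53.9, 49.8 and 50.9 at day 1, from above EV to overlapping it. Each of these values uses the day 0 libraries of EV, which the 3 forms share.

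The counts of these changes moved when some libraries were left out, and shares over all genes in those fits are not given here. The WT count of 42 at day 1 was 27 without EV replicate 3 of day 0, 23 without EV replicate 1 of day 1 and 24 without WT replicate 2 of day 1. The R219S count of 41 was 27 without EV replicate 2 of day 0. Under total-count scaling WT gave 60 higher and 0 lower, FE255del 63 and 0, and R219S 7 and 17, while the share of higher calls over all genes moved from 45.9% to 57.6%, from 43.1% to 59.5% and from 40.9% to 54.9%.

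In EV itself, no member passed edgeR's quasi-likelihood test between day 1 and day 0: 0 members were higher and 0 lower, against 0.259% and 1.17% of all genes. At an unadjusted p under 0.05 there were 15, all higher, and DESeq2 gave 0 adjusted and 8 unadjusted. By day 11, 48 members were lower and 5 higher than at day 0, against 24.6% and 23.1% of all genes, with a median of -0.18. Complex V had 13 of 17 members lower, complex IV 9 of 12, complex III 5 of 8, complex II 3 of 4 and complex I 18 of 36. Ndufa4 averaged 225 ± 8.3 CPM (SD, n = 3) at day 0 and was at 160, 148 and 143 at day 11, a fall of 0.58 ± 0.07 on the log2 scale (adjusted p = 1.4e-08). Atp5k went from 65.4, 64 and 62.2 CPM to 47.1, 42.3 and 43.6, a fall of 0.53 ± 0.06 (adjusted p = 2.7e-08). For both genes the days did not overlap. The 5 members that rose were Ndufa6 (0.45 ± 0.06, adjusted p = 1.2e-07), an accessory subunit of the LYR family, Cox7a2l (0.31 ± 0.06, adjusted p = 6.6e-05), Ndufa7 (0.20 ± 0.07, adjusted p = 0.013), Ndufb11 (0.20) and Ndufa11 (0.15). The Ndufa11 call was lost without EV replicate 1 or 2 of day 0 or replicate 1 or 3 of day 11, with adjusted p of 0.110 to 0.155. Ndufb11 overlaps Rbm10 on the opposite strand, at 78.8 CPM against 95.6 for Ndufb11. The share of all counts taken by the members was 1.09% ± 0.0267 (SD, n = 3) at day 0 and 0.952% ± 0.0232 at day 11 in EV.

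At day 11 the member medians of WT and FE255del were above EV by less than at day 1. WT had 27 higher and 1 lower (21% and 19.7% of all genes), FE255del 45 higher and 0 lower (22.6% and 19.6%), and R219S 1 higher and 10 lower (17.7% and 14.4%, together 32.1%). The medians were 0.10, 0.16 and -0.05, and shares of all counts were 1.07% ± 0.00665 (SD, n = 3) in WT, 1.1% ± 0.0519 in FE255del and 0.884% ± 0.035 in R219S. Among members with a mean of at least 2 CPM, Uqcr10 held the largest rise in both WT and FE255del: 78.3, 74.8 and 73.6 CPM with EV, 104, 108 and 107 with WT, 102, 120 and 115 with FE255del, and 67.2, 78.3 and 68.1 with R219S. WT and FE255del lay above EV by 0.49 ± 0.07 (adjusted p = 1.7e-07) and 0.57 ± 0.07 (adjusted p = 8.1e-09), and R219S overlapped EV. Ndufa8 rose with WT at day 1 by more than any other member except Cox7a1. At day 11 it was at 73.5, 69.4 and 68 CPM with EV and 68.3, 71.1 and 73.9 with WT, overlapping and 0.02 apart (adjusted p = 0.852). Cox7a1 at day 11 was at 0.478, 0.389 and 0.347 CPM with EV and 0.702, 0.903 and 0.335 with FE255del, a call of 0.67 ± 0.25 (adjusted p = 0.029) that overlapped EV and was lost without FE255del replicate 2 (0.36, adjusted p = 0.319). The same call was lost without EV replicate 2, EV replicate 3 or FE255del replicate 1 (adjusted p = 0.076, 0.108 and 0.083). Uqcrb was still higher in WT, at 76.7, 70 and 69.2 CPM with EV and 93.6, 87.7 and 92.5 with WT (0.34 ± 0.06, adjusted p = 6.5e-06). Ndufa6 was the 1 member lower with WT, at 104, 99.3 and 107 CPM with EV and 80.3, 84.3 and 91.8 with WT (-0.27 ± 0.06, adjusted p = 2.9e-04).

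Ndufa1 was the 1 member higher in R219S at day 11. It was at 32.2, 28.1 and 31 CPM with EV, 33.7, 34.7 and 37.9 with WT, 31.7, 34.3 and 31.8 with FE255del, and 48, 49.4 and 51.5 with R219S. Only R219S stood clear of the rest, by 0.71 ± 0.06 from EV (adjusted p = 5.6e-11) and 0.49 ± 0.06 from WT (adjusted p = 6.8e-08). WT was also above EV without overlap, by 0.22 ± 0.06 (adjusted p = 0.006). The change of Ndufa1 with R219S since day 0 beyond EV was 0.55 ± 0.09 at day 11 (adjusted p = 1.5e-05). The change beyond EV at day 11 counted 3 members upward and 1 downward in WT (10.9% and 10.5% of all genes), 1 and 0 in FE255del (9.44% and 11.1%), and 1 and 38 in R219S (12.4% and 14.7%), with medians of 0.05, 0.04 and -0.20. In FE255del the 1 member was Uqcr10 (0.32 ± 0.09, adjusted p = 0.012). In R219S, Atp5g1 (-0.65 ± 0.10, adjusted p = 3.0e-06) and Ndufa4 (-0.42 ± 0.10, adjusted p = 0.001) were among the largest that passed. R219S against WT at day 11 had 3 higher and 41 lower (24.8% and 24.1%), among them Uqcr10 (-0.58 ± 0.07, adjusted p = 4.6e-09), Atp5mpl, a small subunit of ATP synthase (-0.51 ± 0.06, adjusted p = 2.3e-08), and Uqcrb (-0.43 ± 0.06, adjusted p = 9.3e-08). FE255del against WT had 5 higher and 0 lower (9.75% and 7.92%), including Ndufa6 (0.25 ± 0.06, adjusted p = 0.003), Uqcrh (0.24 ± 0.06, adjusted p = 0.005) and Atp5c1, the gamma subunit that turns in the head (0.21 ± 0.05, adjusted p = 0.004).

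Day 11 counts also moved when single libraries were left out, again with no shares over all genes given for those fits. WT against EV went from 28 to 17 without EV replicate 2, and FE255del against EV from 45 to 25 without FE255del replicate 2. R219S against EV went from 11 to 6, 4, 17 and 3 without EV replicate 1, R219S replicate 1, R219S replicate 2 and R219S replicate 3. FE255del against WT went from 5 to 3 without WT replicate 1 and to 8 without FE255del replicate 1, and the R219S change beyond EV from 39 to 25 without R219S replicate 1. Under total-count scaling R219S stood at 1 higher and 34 lower against EV and at 1 higher and 61 lower against WT, as the share of higher calls over all genes moved from 55.2% to 42.6% and from 50.7% to 36.7%.

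Mitochondrial DNA encodes further subunits of the same complexes. Of 13 such genes 7 were used, since the other 6 averaged under 34 counts per library. None of the 7 differed from EV at day 1 by edgeR's quasi-likelihood test with WT, FE255del or R219S, with medians of 0.19, 0.14 and 0.05; the count was also 0 at an unadjusted p under 0.05 and with DESeq2. Their spread was wider than that of the nuclear genes: the share of all counts was 2.69% ± 0.0642 (SD, n = 3) with EV, 3.2% ± 0.439 with WT, 2.99% ± 0.2 with FE255del and 2.7% ± 0.0847 with R219S, so at this precision a difference of the size seen in the nuclear genes was not detectable. At day 11, 3 of the 7 were higher in R219S than with EV, mt-Nd2 (0.54 ± 0.17, adjusted p = 0.013), mt-Nd5 (0.60 ± 0.18, adjusted p = 0.014) and mt-Nd6 (1.06 ± 0.30, adjusted p = 0.007). The rest of the 7 were positive but not called: mt-Nd1 (0.30, adjusted p = 0.138), mt-Nd4 (0.49, adjusted p = 0.079), mt-Co1 (0.42, adjusted p = 0.099) and mt-Cytb (0.49, adjusted p = 0.059). The nuclear members had 1 higher and 10 lower in that comparison, 1.3% and 13% of the 77. The lower share is near that of all genes given above, and the higher share is below it. The share of counts in R219S at day 11 ran from 2.68% to 4.24%, with replicate 2 the highest. Without that library none of the 3 was called: mt-Nd2 stood at 0.27 (adjusted p = 0.206), mt-Nd5 at 0.33 (adjusted p = 0.193) and mt-Nd6 at 0.70 (adjusted p = 0.090). Without EV replicate 1, mt-Nd2 and mt-Nd5 were not called either (adjusted p = 0.051 and 0.058), nor was mt-Nd6 without EV replicate 2 (adjusted p = 0.053).

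Other genes of mitochondrial respiration were given by lists that hold no member. Among 11 chain genes outside the symbol rule, 6 were higher and 2 lower in WT at day 1, 7 and 2 in FE255del, and 4 and 1 in R219S. Etfdh, which passes electrons from fatty acid oxidation to ubiquinone, rose by 1.00 ± 0.06 with WT (adjusted p = 3.4e-16) and 0.65 ± 0.06 with FE255del (adjusted p = 3.6e-11). Unlike most members, Etfdh rose with R219S too, by 0.32 ± 0.06 (adjusted p = 3.6e-05). Cyc1 and Cycs, the cytochromes c1 and c, rose by 0.57 ± 0.05 (adjusted p = 5.2e-11) and 0.62 ± 0.06 (adjusted p = 7.2e-11) with FE255del. With WT they rose by 0.18 ± 0.05 (adjusted p = 0.005) and 0.25 ± 0.06 (adjusted p = 6.6e-04). With R219S they differed by -0.06 ± 0.05 (adjusted p = 0.431) and 0.09 ± 0.06 (adjusted p = 0.261). Gpd2 of the same list went the other way with WT, by -0.61 ± 0.05 (adjusted p = 5.1e-13). It differed by 0.01 ± 0.05 with FE255del (adjusted p = 0.892) and rose by 1.16 ± 0.05 with R219S (adjusted p = 3.3e-20). Gpd2 already differed at day 0, by -0.45 with WT and 0.17 with R219S (adjusted p = 9.1e-09 and 0.010). Ndufa4l2, a paralog of Ndufa4 known as a hypoxia target, was lower than EV in all 3 forms, by -1.24 ± 0.23 with WT (adjusted p = 4.5e-05), -3.43 ± 0.28 with FE255del (adjusted p = 3.2e-11) and -1.99 ± 0.25 with R219S (adjusted p = 1.2e-07). It was already lower at day 0, by -1.04, -2.22 and -1.34 (adjusted p = 0.001, 2.2e-07 and 2.1e-04). The change of Ndufa4l2 since day 0 beyond EV passed with FE255del (-1.21, adjusted p = 0.010) but not with WT (-0.20, adjusted p = 0.674) or R219S (-0.65, adjusted p = 0.133). Cyc1 and Cycs with FE255del were above EV at day 0 too, by 0.23 and 0.22 (adjusted p = 0.002 and 0.007). Of 46 assembly factors, 25 were higher and 3 lower in WT, 30 and 2 in FE255del, and 16 and 3 in R219S, with medians of 0.19, 0.22 and 0.12.

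Not every mitochondrial list moved with the members. Of 76 tested mitochondrial ribosome genes, 23 were higher and 19 lower in WT at day 1, with a median of 0.01, 41 and 2 in FE255del, and 18 and 8 in R219S. Of 26 import and protein-quality genes, 2 were higher and 11 lower in WT and 9 and 1 in FE255del. The 22 tested genes of pyruvate oxidation and the citric acid cycle had 12 higher and 6 lower in WT, 14 and 3 in FE255del, and 6 and 6 in R219S. In WT the lower ones included Idh2 (-0.39 ± 0.04, adjusted p = 1.2e-10) and Cs, citrate synthase (-0.26 ± 0.04, adjusted p = 5.7e-08), while the chain members rose. Of 25 glycolysis and hypoxia genes, 10 were higher and 11 lower in WT, 7 and 15 in FE255del, and 3 and 13 in R219S. The cytosolic ribosome, another set of abundant short messages, had 6 of 77 higher and 12 lower in WT, 11 and 6 in FE255del, and 0 and 73 in R219S, with medians of 0.01, 0.04 and -0.30. The members' own median in R219S was -0.05, near the -0.04 over all genes.

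**Figure D5:**
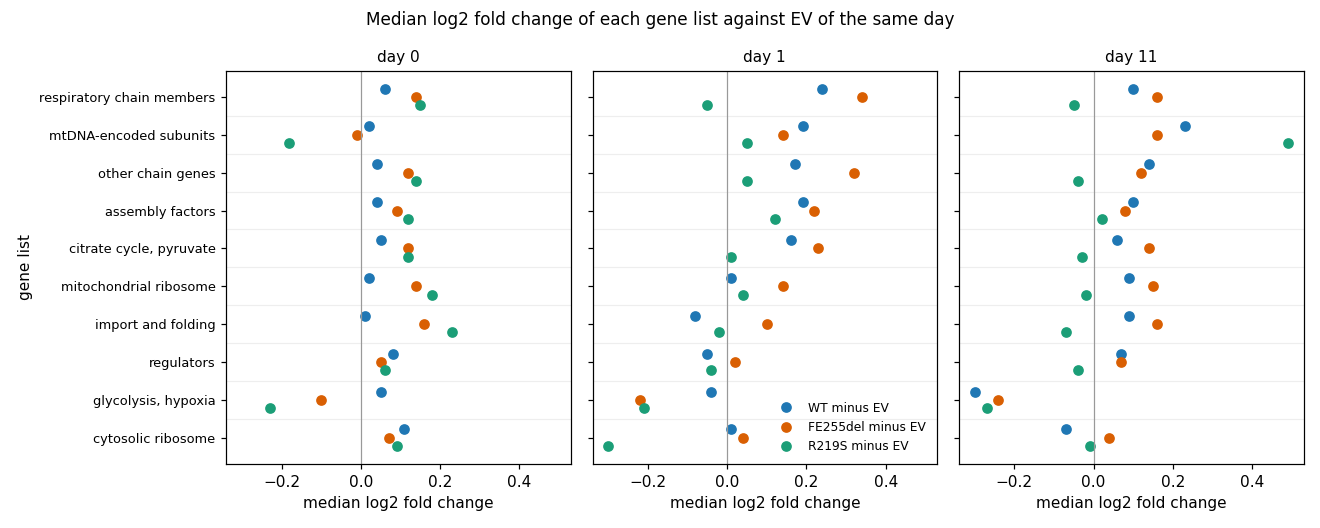
Median log2 difference from EV of the respiratory chain members and of each comparison list, by construct, at day 0, day 1 and day 11. At day 1 the members' medians are 0.24 with WT, 0.34 with FE255del and -0.05 with R219S, and the cytosolic ribosome's are 0.01, 0.04 and -0.30.

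Among 20 regulators of mitochondrial biogenesis, 8 were higher and 9 lower in WT at day 1, 8 and 7 in FE255del, and 3 and 5 in R219S. Shares of all genes are given above. Ppara differed from EV by 3.72 ± 0.28 with WT, 3.03 ± 0.28 with FE255del and 1.08 ± 0.29 with R219S (adjusted p = 6.3e-14, 1.7e-11 and 0.002). Nrip1 differed by -1.34 ± 0.08 with WT and -0.94 ± 0.08 with FE255del (adjusted p = 6.8e-16 and 4.5e-12). Ppard differed by -0.87 ± 0.04 and -0.65 ± 0.04 (adjusted p = 1.6e-18 and 5.2e-15). With R219S Nrip1 and Ppard differed by -0.11 (adjusted p = 0.240) and -0.24 (adjusted p = 1.3e-05). Ppargc1a, the PGC-1 alpha coactivator, was above EV by 1.71 ± 0.12 with WT (adjusted p = 5.5e-15), 1.65 ± 0.12 with FE255del (adjusted p = 2.4e-14) and 0.62 ± 0.12 with R219S (adjusted p = 4.3e-05). Ppargc1a was already above EV at day 0, by 1.99 ± 0.12 with WT (adjusted p = 5.0e-15), 1.28 ± 0.12 with FE255del (adjusted p = 6.3e-10) and 0.64 ± 0.12 with R219S (adjusted p = 2.8e-04). Its change since day 0 beyond EV did not pass at day 1, at -0.28, 0.36 and -0.02 (adjusted p = 0.181, 0.079 and 0.971). Ppargc1b, its paralog, rose by 1.08 ± 0.09 with WT (adjusted p = 1.2e-12) and 1.17 ± 0.09 with FE255del (adjusted p = 2.2e-13) and fell by 0.51 ± 0.09 with R219S (adjusted p = 2.5e-05). Among the factors whose motifs were searched for above, Nrf1 differed by -0.31 ± 0.04 with WT (adjusted p = 5.5e-08) and -0.28 ± 0.04 with FE255del (adjusted p = 4.6e-07), and Gabpa differed by -0.37 ± 0.04 with WT (adjusted p = 2.2e-09) and -0.15 ± 0.04 with FE255del (adjusted p = 0.003). Yy1 differed by -0.19 ± 0.04 (adjusted p = 2.8e-04) and -0.25 ± 0.04 (adjusted p = 9.4e-06). Nrf1 and Yy1 were lower with R219S too, by -0.11 ± 0.04 (adjusted p = 0.030) and -0.15 ± 0.04 (adjusted p = 0.004). Gabpa differed there by -0.07 ± 0.04 (adjusted p = 0.148). Esrra, an estrogen-related receptor, was higher, by 0.13 ± 0.05 with WT (adjusted p = 0.021) and 0.28 ± 0.05 with FE255del (adjusted p = 6.2e-06). The Esrra difference with R219S was 0.03 ± 0.05 (adjusted p = 0.706). Its relative Esrrg was also called higher with WT and FE255del (adjusted p = 4.7e-04 and 3.4e-04), from a few counts per library. Its standard errors could not be estimated at that level, so no size is given and the call carries little weight. Any part of these regulators in the members' values was not tested.

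The epithelial makeup of the organoids, read from marker lists, also differed between constructs at day 1. The summed level of 8 basal markers was 9550 to 10252 CPM with EV, 3467 to 3600 with WT, 2167 to 2341 with FE255del and 5853 to 6005 with R219S. At day 11 it was 11724 to 12542 with EV, 5973 to 7186 with WT, 6351 to 6483 with FE255del and 13475 to 14907 with R219S. The basal sum was lowest in WT and FE255del on both days. R219S also lay below EV at day 1, with a member median of -0.05. Basal sums at day 0 are not given here. The 9 luminal markers, of which Pbsn had no count, summed to 4135 to 4396 CPM with EV, 4113 to 4211 with WT, 4516 to 4717 with FE255del and 5591 to 5730 with R219S at day 1. Of the 8 tested, 3 were higher and 4 lower than EV in WT, 3 and 4 in FE255del, and 2 and 6 in R219S, with medians of -0.12, -0.11 and -0.71. The higher sum with R219S came with Cd24a, which averaged 676 CPM with EV and 3501 with R219S, whereas Krt18, Krt19 and Tmprss2 fell with R219S. Stromal markers summed to at most 9.75 CPM at day 1, with Col1a2 at 0, immune markers to at most 4.89, and endothelial markers to at most 7.07, against 0.817 or less with EV. The part of these markers in the members' values was not tested.

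Of the 83 members, 33 overlap another gene in the count tables, and in 15 of them the partner averaged at least 10% of the member's level. Besides Ndufs1 and Ndufb11 these include Ndufb2, at 17.6 CPM beside 58 for Braf, and Cox6c, at 152 beside 83.5 for Vps13b. For these 15 the origin of some reads is uncertain, since it is not given whether the counting used strand.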

How the data were processed

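Poly(A) RNA of 36 libraries was sequenced with a stranded kit, per the labels' protocols. The submitters' processing notes name STAR 2.4.2a, featureCounts 1.4.3 and the build mm10; annotation and strand setting are not given in the sources used here. The authors deposited a table of read counts per gene for each library. Here these were treated as estimated counts, because 298311 values as deposited were held as decimals, within 3.0e-09 of whole numbers, and they were rounded. Of 45232 identifiers 44585 matched a symbol.

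Groups follow the labels. edgeR 4.0.16 (R 4.3.3, limma 3.58.1) fitted 12 group means to all libraries, after filterByExpr with a minimum count of 10 (18176 genes) and TMM scaling (factors 0.938 to 1.08), with the robust quasi-likelihood F test, two-sided, and Benjamini-Hochberg adjustment over all genes in each of 23 comparisons. The common biological coefficient of variation was 0.0695. Standard errors are the log2 fold change divided by the square root of F. Mean log2 levels used a prior count of 3. Fits were tested on simulated data. Alternatives were RLE and total-count scaling, no filter and a stricter filter, a replicate block, only the compared groups, each library left out, and DESeq2 1.42.0. Levels per kilobase used merged exons.

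The members and lists were chosen with earlier results of these data known. The members described with values were those with known roles, paralogs, and, in each comparison, the 3 largest rises and falls past the threshold without overlap and with a mean of at least 2 CPM, together with all that passed against a majority when 5 or fewer did. A further 15 members described in several comparisons were added after their values were seen.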

Additional observations from a re-analysis of the deposited data

Results flagged for a closer look

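The change since day 0 differed between a FOXA1 construct and EV, by an interaction test on each member (edgeR's quasi-likelihood test, adjusted p under 0.05 over all genes), for 42 members with WT, 39 with FE255del and 41 with R219S at day 1. Those changes were mostly upward with WT (41 of 42), upward with FE255del (39 of 39) and mostly downward with R219S (38 of 41). At day 11 the same test passed for 4 members with WT, for 1 with FE255del, which was Uqcr10, and for 39 with R219S, of which 38 went downward. The WT and FE255del counts at day 11 were 5.19% and 1.3% of the members, below the shares of all genes given above. The day 1 counts were 54.5%, 50.6% and 53.2% of the members, and the R219S count at day 11 was 50.6%, above the shares of all genes. Each of the 6 counts was singled out because the difference between the changes was itself tested. All 6 counts rest on the same day 0 libraries of EV.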

How the results depend on the processing

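Each count of called members and each member median was recomputed under every alternative, 670 values in all, of which 585 kept their direction and stayed within 1.5 times the count or within the replicate spread of the median; the cause of the other shifts was not tested. Among 448 called results for single members, 160 lost the call under at least 1 alternative and 1 result changed sign: Uqcrc1 in WT against EV at day 1, at 0.12 (adjusted p = 0.006) under total-count scaling.

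Total-count scaling gave 23 called in WT against EV at day 0, 23 in R219S against EV at day 0, 43 in WT and 35 in R219S against EV at day 11, and 17 in R219S against WT at day 0. For changes since day 0 it gave 63 in FE255del and 24 in R219S at day 1, and 9 in WT and 7 in FE255del at day 11. The medians it moved were 0.11 in R219S against EV at day 0, 0.36 in WT and 0.45 in FE255del against EV at day 1, 0.14 in WT against EV at day 11, and 0.04, -0.35 and -0.24 in R219S against WT at days 0, 1 and 11. For changes since day 0 at day 1 they were 0.29 in WT, 0.32 in FE255del and -0.10 in R219S. RLE scaling gave 11 in FE255del against WT at day 0. Without a filter the counts were 21 in R219S against EV, 9 in FE255del against WT and 15 in R219S against WT at day 0, 24 for the R219S change at day 1 and 2 for the WT change at day 11. A stricter filter gave 16 in WT against EV at day 0.

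Fitting only the compared groups gave 30 in WT and 47 in FE255del against EV and 31 in FE255del against WT at day 0, 2 in R219S against EV, 3 in FE255del against WT and 29 in R219S against WT at day 11, and 3 in EV between days 0 and 1. For the changes it gave 59 in FE255del at day 1, 7 in WT and 19 in R219S at day 11, and medians of 0.27 in FE255del and -0.13 in R219S at day 1.

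With 1 library left out, counts ranged from 4 to 11 in WT, 13 to 37 in FE255del and 9 to 43 in R219S against EV at day 0, from 16 to 29 in R219S at day 1, and from 17 to 28 in WT, 25 to 48 in FE255del and 3 to 17 in R219S at day 11. Against WT they ranged from 5 to 25 in FE255del and 16 to 29 in R219S at day 0 and from 3 to 8 in FE255del at day 11. For the changes they ranged from 23 to 46 in WT and 27 to 45 in R219S at day 1 (medians -0.23 to -0.14), and from 2 to 5 in WT, 1 to 4 in FE255del and 25 to 44 in R219S at day 11. The WT change at day 11 counted 3, mostly in the other direction, without EV replicate 2 or WT replicate 3 of day 11. Shares over all genes in the fits with 1 library left out are not given here.

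In no comparison did every pair of same-numbered libraries deviate together with a correlation above 0.1 (range -0.28 to 0.28), so the numbers were not taken as pairs. With a replicate block, 0 called single-member results were lost, and the FE255del change at day 11 moved from 1 member to 2. Depth limits Cox7a1 most among the tested members described, with standard errors of 0.22 to 0.24 at day 1.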
